A study of Mus musculus with 400 samples.

Results

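The 6 genes Nefl, Nefm, Nefh, Ina, Prph and Vim, which encode the neurofilament subunits and other cytoplasmic intermediate filaments of neurons and glia, were taken by name from the 24754 gene rows of the deposited tables, and all 6 were found. They were followed across 371 single cells of cervical dorsal root ganglia (C1-C8 DRG), the ganglia beside the spinal cord that hold the cell bodies of sensory neurons. The cells came from 6 naive mice, 6 to 12 weeks old, that all carried Nav1.8-Cre and R26CAG-floxStop-tdTomato (strain Nav1.8-Cre.Ai14), and every sorted tdTomato+ cell gave a separate library in 1 of 4 runs. Run 1 held the mice Blue and Red, run 2 the mouse Control, run 3 the pair Control1 and Control2, and run 4 the mouse Control6. No mouse was treated, so every comparison below is between kinds of cells within these mice. Cre was driven by the Nav1.8 gene Scn10a, a sodium channel of nociceptors, so the sort takes cells in which that gene is or once was active and is no sample of all DRG neurons.

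Intermediate filaments are the rope-like element of the cytoskeleton beside actin and microtubules. In mature neurons the light (Nefl), medium (Nefm) and heavy (Nefh) neurofilament subunits co-assemble with alpha-internexin (Ina) or peripherin (Prph), fill the axon and set its calibre. Large myelinated sensory neurons are known for abundant heavy neurofilament, small unmyelinated ones for peripherin, and vimentin (Vim) is the filament of glia, fibroblasts and many immature cells.

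In the GENCODE vM21 annotation of GRCm38 (mm10), Nefh lies on chromosome 11 from 4938754 to 4948064 on the minus strand, and Ina on chromosome 19 from 47014698 to 47025327 on the plus strand. Prph lies on chromosome 15 from 99055174 to 99058978 and Vim on chromosome 2 from 13573927 to 13582826, both on the plus strand. Nefl (chromosome 14, 68083863 to 68089095, plus strand) lies within the annotated span of Nefm (68082590 to 68124846, minus strand). The exons of this pair share 1108 bases, and no source used here says whether counting used the strand, so reads from the shared stretch cannot be told apart. Of the low values, 1.4% for Nefm (3 of 214) and 2.42% for Nefl (4 of 165) were fractions of a count. It was 0% for each of the other 4 genes, of which Prph had 29 low values. Over all genes a median of 96.5% of low values in a cell were whole, so fractions are not particular to this pair.

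Promoter windows in the RefSeq-based table (GRCm38.p6) matched 3 of the 6 genes by symbol: Ina, Prph and Vim. The 250 bases before the start are shown for Ina, which differed between gates, and for Prph, which passed the test in no pair. Both strands were searched for the TATA box, spelled TATAAA. The same was done for a GC box, spelled GGGCGG, which reads CCGCCC where it lies on the minus strand. The search also took the CCAAT box by its name, the cyclic AMP response element TGACGTCA and the E-box spelled CACGTG. Capitals mark the matches found.
Ina (chr19:47014431-47014680, plus strand): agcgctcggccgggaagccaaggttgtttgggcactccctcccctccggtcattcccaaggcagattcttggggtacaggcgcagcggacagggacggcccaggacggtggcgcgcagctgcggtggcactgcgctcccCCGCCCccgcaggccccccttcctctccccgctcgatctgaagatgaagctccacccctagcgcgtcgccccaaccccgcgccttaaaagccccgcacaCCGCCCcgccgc
Prph (chr15:99054924-99055173, plus strand): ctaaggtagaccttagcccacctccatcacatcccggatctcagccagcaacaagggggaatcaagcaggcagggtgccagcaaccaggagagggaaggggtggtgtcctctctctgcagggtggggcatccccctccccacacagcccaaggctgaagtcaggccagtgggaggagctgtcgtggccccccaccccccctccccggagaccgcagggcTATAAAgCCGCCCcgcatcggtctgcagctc
The Prph window held TATAAA 31 bases and GGGCGG 24 bases before the start, and the Ina window held GGGCGG at 12 bases and once farther from it, and no TATAAA. The Vim window held TATAAA at 32 bases and CCAAT at 196 and 94 bases before the start. Of 32851 windows of this length, 12.4% held TATAAA, 32.7% GGGCGG, 33.8% CCAAT, 6.02% CACGTG and 1.55% TGACGTCA. GC content was 70.8% for Ina and 65.2% for Prph, against a median of 52.4% over all windows. These matches describe letters only.

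The labels listed 400 cells, 394 had a column, and 371 with at least 500 genes were kept, between 19 and 50 from each mouse of runs 2 to 4 and the rest from Blue and Red. Kept cells held 918 to 324984 recovered counts (median 30366) and a median of 6580 genes. Levels are CPM, a gene's counts scaled to the same total in every cell, and are not scaled by gene length, so they are compared between cells and not between genes. Cells were gated by single genes: Mrgprd at 200 CPM or more (nonpeptidergic nociceptors), Mrgpra3 at 50 (itch-sensing neurons), Sst or Nppb at 100 (another itch-sensing kind), Th at 100 (low-threshold C fibres) and Calca at 2000 with Tac1 at 1000 (peptidergic nociceptors). Exactly 1 gate took 321 cells: 44 in the Mrgpra3 gate, 45 in Sst/Nppb, 37 in Th, 84 in Calca+Tac1 and the rest in Mrgprd. A further 45 cells were in no gate, 20 of them from mouse Control, and 5 in several. Depth differed between gates, with median counts of 46146, 39371, 17052, 32442 and 19700 in the Mrgprd, Mrgpra3, Sst/Nppb, Th and Calca+Tac1 gates. In each gate all 5 general neuron markers (Snap25, Uchl1, Tubb3, Rbfox3 and Elavl4) were detected, and of each gate's own markers all were, except Mrgprb4, which was at 0 in the Mrgprd gate.

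The mouse is the replicate. Mean CPM per mouse and gate, with at least 3 cells, gave 20 values: 6 mice in the Mrgprd and Calca+Tac1 gates, 4 in Sst/Nppb, and the run 1 mice alone (Blue and Red) in Mrgpra3 and Th. All 10 pairs of gates were compared by limma on log2(CPM + 5), with a term for the mouse, and p-values were adjusted by Benjamini-Hochberg over the 9149 genes tested in each pair. Of 60 tests of the 6 genes, 21 had an adjusted p under 0.05, against 11% of all tests of all genes. On recovered counts edgeR called 37 of the 60, against 24.3% of all tests, and by limma 13 passed without Blue and 14 without Red. Nefl passed in 6 of its 10 pairs, Nefm, Ina and Vim in 4 each, Nefh in 3 and Prph in 0. In the 24 tests that involve the Sst/Nppb gate, 17 passed, all 17 lower in Sst/Nppb, and in the other 36 tests 4 passed. Between the Mrgprd and Sst/Nppb gates 5 of 6 genes passed (background 19.2% of all genes, 13.1% lower in Sst/Nppb), between Sst/Nppb and Calca+Tac1 5 (18.9%, 12.7% lower in Sst/Nppb), between Sst/Nppb and Th 4 (14.4%, 8.91% lower) and between Mrgpra3 and Sst/Nppb 3 (6.45%, 4.53% lower). Between Mrgprd and Calca+Tac1 3 passed (19.6%) and between Mrgpra3 and Calca+Tac1 1 (5.4%). None passed by limma between Mrgprd and Mrgpra3 (3.74%), Mrgprd and Th (7.3%), Mrgpra3 and Th (6.66%) or Th and Calca+Tac1 (7.88%). Of these 24 tests 5 had an unadjusted p under 0.05 by limma, and 9 were called by edgeR and 4 by DESeq2. Over all genes and all 10 pairs edgeR called 24.3% of tests and DESeq2 19.1%. The edgeR and DESeq2 shares of all genes for these 4 pairs alone are not given here. The median difference of all 9149 genes was 0.19 on the log2 scale for Mrgprd minus Sst/Nppb and between -0.15 and 0.11 for the other pairs. By edgeR and DESeq2 on recovered counts, which differ from limma in more than scaling, that 0.19 was 0.04 and 0.03. No difference of the 6 genes that passed turned its direction under any alternative.

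**Figure D1:**
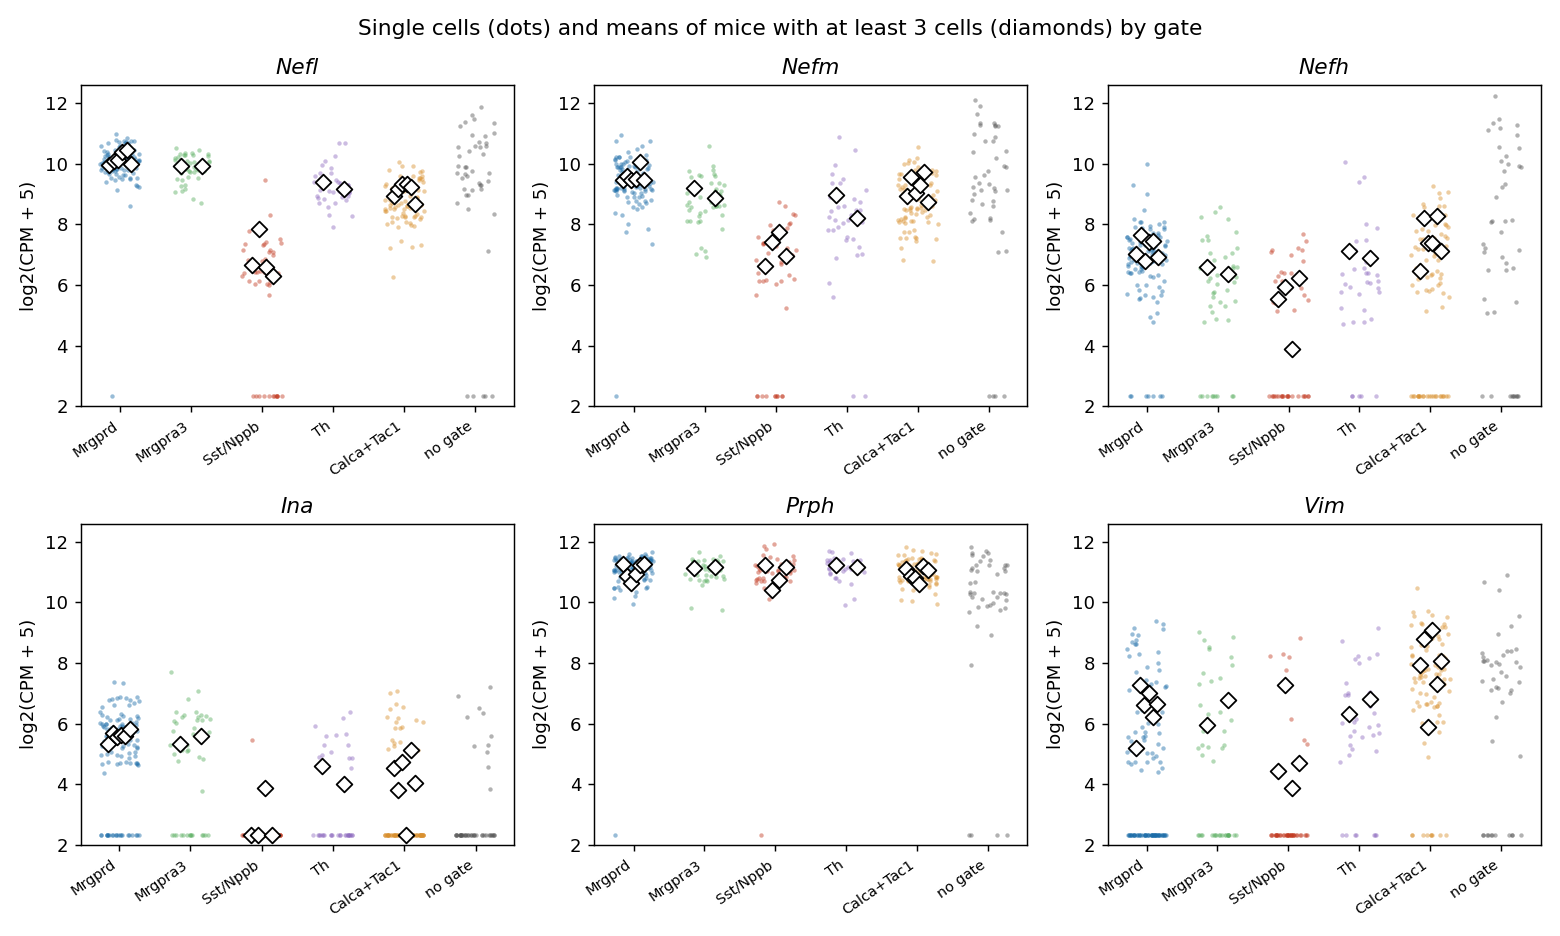
Level of each gene, as log2(CPM + 5), in single cells (dots) by gate, with means of mice that have at least 3 cells in the gate (diamonds); the row at the bottom of each panel holds cells without a count. In the Sst/Nppb gate all 4 mouse means of Nefl lie at or under 223 CPM, below those of the other gates, while the mouse means of Prph overlap in all gates.

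Nefl, the core subunit that other neurofilament proteins need for assembly, was lowest in the Sst/Nppb gate. Mouse means there were 74.1 CPM (Red), 92.2 (Control1), 95.3 (Blue) and 223 (Control). In the Mrgprd gate they ran from 994 (Blue) through 1020 (Red), 1094 (Control), 1121 (Control1) and 1320 (Control2) to 1383 (Control6), with no overlap. The mean of Control in the Sst/Nppb gate rests on 4 cells, 1 of them at 701 CPM in a library of 1427 counts. The difference, Mrgprd minus Sst/Nppb, was 3.22 on the log2 scale (SE 0.18, adjusted p = 9.39e-11 by limma), a ratio of 9.31, higher in 4 of 4 mice with both gates. It was 3.51 within run 1 and 2.96 in runs 2 to 4, and 3.67 among cells with at least 2000 genes.

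The other gates lay between these ends for Nefl. The Mrgpra3 gate had mouse means of 978 (Blue) and 964 CPM (Red), 3.30 above Sst/Nppb on the log2 scale (SE 0.24, adjusted p = 2.25e-08 by limma), and did not pass against Mrgprd (Mrgprd minus Mrgpra3 was -0.08, 95% interval -0.57 to 0.40). The Th gate had 671 (Blue) and 572 CPM (Red), and Sst/Nppb minus Th was -2.66 (SE 0.24, adjusted p = 9.25e-08 by limma). The Calca+Tac1 gate ranged from 407 (Red) to 645 CPM (Control2) over 6 mice with a mean of 557 ± 94.2 (SD, n = 6), and Sst/Nppb minus Calca+Tac1 was -2.16 (SE 0.18, adjusted p = 2.23e-08 by limma). By means over each gate's own mice the order was Mrgprd, Mrgpra3, Th, Calca+Tac1 and Sst/Nppb; the fit, which compares within mice, put Mrgpra3 slightly above Mrgprd. Of neighbours in this order, Mrgprd and Mrgpra3, Mrgpra3 and Th, and Th and Calca+Tac1 did not pass the threshold. Nefl was higher in the Mrgprd than in the Calca+Tac1 gate in 6 of 6 mice, by 1.05 on the log2 scale (SE 0.15, adjusted p = 2.08e-05 by limma), a ratio of 2.08, with no overlap of mouse means. Mrgpra3 exceeded Calca+Tac1 by 1.14 (SE 0.23, adjusted p = 0.00395 by limma), in 2 of 2 mice. This last call was lost without Blue (1.23, adjusted p = 0.248 by limma) or without Red (1.07, adjusted p = 0.365 by limma), when 1 mouse is left in the Mrgpra3 gate.

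Medians over single cells had the order of these means for Nefl. A count was found in all Mrgprd cells but 1 and in every cell of the Mrgpra3, Th and Calca+Tac1 gates, and in 33 of 45 Sst/Nppb cells (73.3%, exact 95% interval 58.1 to 85.4%, counting error only). The median cell had 1064 CPM in the Mrgprd, 952 in the Mrgpra3, 547 in the Th, 415 in the Calca+Tac1 and 80.3 in the Sst/Nppb gate. Nefl reached 1000 CPM in 65 Mrgprd cells and in no Sst/Nppb cell. Its spread within gates was narrow in the Mrgprd and Mrgpra3 gates, with coefficients of variation of 29.6% and 27.5%, and 119.3% in the Sst/Nppb gate. The last value includes the cell at 701 CPM in a library of 1427 counts. The 45 Sst/Nppb cells held 81 Nefl counts in all, and the part of counting error in their spread was not tested.

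Nefm, the medium subunit with a long phosphorylated tail, was also lowest in the Sst/Nppb gate. Mouse means there were 92.9 (Blue), 117.8 (Red), 168 (Control) and 208 CPM (Control1). In the Mrgprd gate 5 mice lay between 701 (Blue) and 766 CPM (Control), and Control6 stood above them at 1072. The difference of 2.29 on the log2 scale (SE 0.18, adjusted p = 6.45e-09 by limma), a ratio of 4.91, held in 4 of 4 mice, was 2.69 within run 1 and 1.96 in runs 2 to 4, and the groups did not overlap. Nefm averaged 608 ± 161 CPM (SD, n = 6) in the Calca+Tac1 gate, and Sst/Nppb minus Calca+Tac1 was -1.92 (SE 0.18, adjusted p = 1.06e-07 by limma).

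The run 1 gates were also above Sst/Nppb for Nefm. Mrgpra3, at 580 (Blue) and 460 CPM (Red), exceeded it by 2.07 (SE 0.24, adjusted p = 7.39e-06 by limma), and Sst/Nppb minus Th, with Th at 495 (Blue) and 289 CPM (Red), was -1.62 (SE 0.24, adjusted p = 4.77e-05 by limma). Without Blue that difference was -1.11 with adjusted p = 0.0759 by limma, and with cells thinned to 5000 counts the Mrgpra3 difference was 1.48 with adjusted p = 0.0595. The remaining pairs did not pass: Mrgprd minus Calca+Tac1 was 0.37 (95% interval 0.06 to 0.69, adjusted p = 0.09 by limma) although higher in 6 of 6 mice, and Mrgprd minus Th was 0.67 (0.19 to 1.15, adjusted p = 0.096). The median cell had 678 CPM in the Mrgprd, 425 in the Mrgpra3, 419 in the Calca+Tac1, 297 in the Th and 104.2 in the Sst/Nppb gate. A count was found in all 44 Mrgpra3 and all 84 Calca+Tac1 cells and in 35 of 45 Sst/Nppb cells.

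Nefh, the heavy subunit that marks large myelinated neurons, was low in the Sst/Nppb gate. Its mean over mice was highest, but variable, in the Calca+Tac1 gate, where Control, Control1, Control2 and Control6 had 3 or 4 cells each. Over single cells the median was highest in the Mrgprd gate, at 121.5 CPM. It was 92.96 CPM in Calca+Tac1, 63.5 in Th, 62.1 in Mrgpra3 and 31.4 in Sst/Nppb. Mouse means in Sst/Nppb were 9.69 (Control1), 41.6 (Blue), 56.6 (Control) and 69.6 CPM (Red). In the Mrgprd gate the 6 means lay between 105.7 (Control1) and 198 CPM (Control), and in the Calca+Tac1 gate between 83.3 (Blue) and 308 CPM (Control6). Both ranges lay above that of the Sst/Nppb gate, and they overlapped each other. The Sst/Nppb gate was lower than Mrgprd by 1.66 on the log2 scale (SE 0.33, adjusted p = 0.000851 by limma) and Sst/Nppb minus Calca+Tac1 was -1.94 (SE 0.33, adjusted p = 0.000184 by limma), each in 4 of 4 mice. The difference from Mrgprd was 1.08 within run 1 and 2.36 in runs 2 to 4, and Sst/Nppb minus Calca+Tac1 was -0.92 within run 1 and -2.85 in runs 2 to 4.

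Th-gated cells had Nefh means of 134 (Blue) and 113.9 CPM (Red), and Sst/Nppb minus Th was -1.66 (SE 0.44, adjusted p = 0.0121 by limma). That call was lost without Blue (-1.47) and without Red (-2.20), when 1 mouse is left in the Th gate. Each of these Th means holds 1 cell far above the rest, at 1064 CPM in Blue and 742 CPM in Red. Median Nefh in the Th gate was 62.3 CPM in Blue and 60.4 CPM in Red, against 0 and 65.9 CPM in Sst/Nppb. Mrgpra3-gated cells had 90.7 (Blue) and 77.5 CPM (Red), 1.13 above Sst/Nppb (95% interval 0.21 to 2.04, adjusted p = 0.17 by limma). Thinning every cell to 5000 counts left Nefh with 0 of 10 calls by limma and 2 at an unadjusted p under 0.05, while edgeR called 6 and DESeq2 3 without thinning. In the thinned cells Mrgprd minus Sst/Nppb was 1.54 with adjusted p = 0.21, and Sst/Nppb minus Calca+Tac1 -1.50 with adjusted p = 0.222. In single cells a Nefh count was found in 93.7% of Mrgprd, 86.5% of Th, 79.5% of Mrgpra3, 73.8% of Calca+Tac1 and 53.3% of Sst/Nppb cells. At least 500 CPM was reached by 3 Mrgprd, 3 of 37 Th and 3 of 84 Calca+Tac1 cells and by no Mrgpra3 or Sst/Nppb cell. The 3 Th cells, from Blue, Red and Control2, had 10831, 7636 and 7288 CPM of Calca and no Tac1 count. Whether they are low-threshold C fibres was not tested.

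Ina, the subunit that joins the neurofilament triplet mainly in central neurons, was measured at low levels and was found in few cells of some gates. In the Sst/Nppb gate 1 of 45 cells had a count of Ina (2.22%, exact 95% interval 0.0562 to 11.8%, counting error only), a cell of Control1. It was found in 90 Mrgprd cells (81.1%, 72.5 to 87.9%) and in 30 of 44 Mrgpra3 cells (68.2%, 52.4 to 81.4%). Of Th cells 37.8% (22.5 to 55.2%) and of Calca+Tac1 cells 23.8% (15.2 to 34.3%) had one. Depth is part of such shares: with all cells thinned to 5000 counts they were 25.7% in Mrgprd, 16.3% in Mrgpra3, 8.33% in Calca+Tac1, 5.41% in Th and 0% in Sst/Nppb, where 0 of 44 cells allows up to 8.04%.

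By mouse, Ina ranged from 35.2 (Blue) to 52.3 CPM (Red) in the Mrgprd gate and was 35.5 (Blue) and 42.8 CPM (Red) in Mrgpra3. It was at 0 in 3 of the 4 mice of the Sst/Nppb gate and at 9.69 CPM in Control1. The cells of the Mrgprd gate held 251 Ina counts in 5422632 and those of the Sst/Nppb gate 1 in 876077, a ratio of 40.6 with an exact interval of 7.21 to 1608 for counting error only. The fitted difference between them, 2.99 on the log2 scale (SE 0.45, adjusted p = 5.08e-05 by limma), depends on the pseudocount and was 4.87 with 1 CPM and 1.56 with 20 CPM. It passed within run 1 (3.26) and did not in runs 2 to 4 (2.66, adjusted p = 0.0755 by limma).

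Mrgpra3 exceeded Sst/Nppb for Ina by 2.88 (SE 0.61, adjusted p = 0.00422 by limma), lost with 1 mouse left in the Mrgpra3 gate (2.91, adjusted p = 0.32 without Blue, and 2.68, adjusted p = 0.437 without Red). Ina was higher in Mrgprd than in Calca+Tac1 in 6 of 6 mice, by 1.51 (SE 0.38, adjusted p = 0.00689 by limma), with 15.1 ± 10.4 CPM (SD, n = 6) in Calca+Tac1. Without Red that difference was 1.46 with adjusted p = 0.0861. Sst/Nppb minus Calca+Tac1 was -1.48 (SE 0.45, adjusted p = 0.0258 by limma), lower in Sst/Nppb in 4 of 4 mice. That call was lost without Blue (-1.28, adjusted p = 0.224), without Red (-1.38, adjusted p = 0.201) and without Control (-1.45, adjusted p = 0.0709). Th was at 19.1 (Blue) and 11.1 CPM (Red), and Sst/Nppb minus Th was -1.72 with adjusted p = 0.0678 by limma and did not pass.

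Prph, the filament of small sensory neurons and autonomic neurons, did not differ past the threshold in any of the 10 pairs by limma. Mouse means were 1605 (Control1) to 2492 CPM (Blue) in Mrgprd, 2273 and 2314 CPM in Mrgpra3, 1352 (Control) to 2410 CPM (Blue) in Sst/Nppb, 2434 and 2291 CPM in Th and 1555 (Control2) to 2365 CPM (Control6) in Calca+Tac1. The mean of Control in Sst/Nppb rests on 4 cells, 1 of them with no Prph count in a library of 1427 counts. All these ranges overlapped, and Blue and Red were at or above 2146 CPM in every gate. The largest fitted difference, Mrgprd minus Sst/Nppb, was 0.15 on the log2 scale (SE 0.10, 95% interval -0.06 to 0.36, adjusted p = 0.326 by limma). In that pair the upper bound of 0.36 for Prph lies under the lower bounds of Nefl (2.85), Nefm (1.93), Nefh (0.99), Ina (2.05) and Vim (0.49). On recovered counts edgeR and DESeq2 each called Prph in 1 of 10 pairs, Mrgprd and Calca+Tac1, and Prph passed at an unadjusted p under 0.05 in 0 of 10 by limma. Of the 371 kept cells, 365 had a Prph count (98.4%) and the coefficient of variation over them was 30.1%, against 69.8% for Nefl, 90.98% for Nefm and 226% for Nefh.

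**Figure D2:**
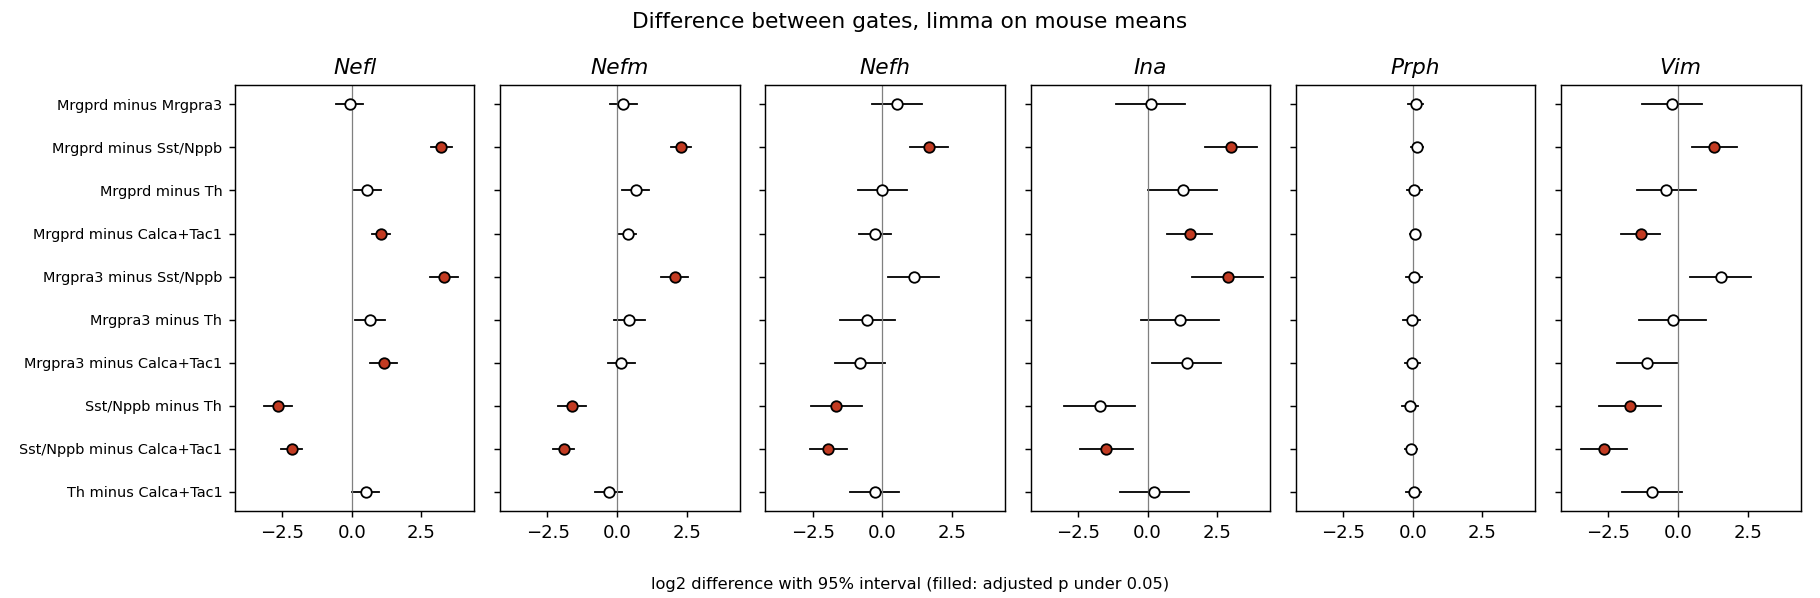
Fitted log2 difference of each gene for the 10 pairs of gates (points) with 95% intervals (lines), from limma on mouse means; filled points have an adjusted p under 0.05. Filled points of Nefl reach 3.30, those of Prph are absent, and every filled point in a pair with Sst/Nppb has the lower level in Sst/Nppb.

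Vim, the filament of glia and mesenchymal cells, had another order, with the highest mean in the Calca+Tac1 gate. Mouse means there were 54.4 (Control1), 152 (Control6), 240 (Blue), 261 (Red), 437 (Control) and 537 CPM (Control2), a wide range. In Sst/Nppb they were 9.69 (Control1), 16.5 (Blue), 20.99 (Red) and 151 CPM (Control), so the groups overlapped through Control. The difference, Sst/Nppb minus Calca+Tac1, was -2.65 on the log2 scale (SE 0.39, adjusted p = 4.39e-05 by limma), lower in 4 of 4 mice, and passed within run 1 (-3.43) and in runs 2 to 4 (-2.05). Vim was also lower in Mrgprd, at 94.1 ± 41.4 CPM (SD, n = 6), than in Calca+Tac1, with a difference of -1.35 (SE 0.33, adjusted p = 0.00553 by limma) in 5 of 6 mice. This call was lost in 6 of 23 alternatives, among them without Blue (-1.07, adjusted p = 0.0852), without the block on mouse (adjusted p = 0.0686), in runs 2 to 4 (-0.98, adjusted p = 0.232) and with cells thinned to 5000 counts (-0.95, adjusted p = 0.413 by limma).

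Against Sst/Nppb, Vim was 1.31 higher in Mrgprd (SE 0.39, adjusted p = 0.022 by limma, 3 of 4 mice), and Sst/Nppb minus Th was -1.72 (SE 0.53, adjusted p = 0.0309, 2 of 2 mice). The first call was lost without Blue (1.39, adjusted p = 0.0667), Red (1.09, adjusted p = 0.202) or Control1 (0.96, adjusted p = 0.0643). The other was lost without Blue (-1.64, adjusted p = 0.37) or Red (-1.62, adjusted p = 0.45), and both without the block on mouse (adjusted p = 0.0836 and 0.203 by limma). In single cells a Vim count was found in 89.3% of Calca+Tac1, 81.1% of Th, 54.5% of Mrgpra3, 52.3% of Mrgprd and 17.8% of Sst/Nppb cells.

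Vim moved with RNA of satellite glia, the cells that wrap DRG neurons. Over 371 cells its rank correlation with the summed CPM of 8 satellite glial markers (among them Apoe, Fabp7, Kcnj10, Glul, Cdh19, Gja1 and Sox10) was 0.60, and within the gates 0.30 to 0.61. For the other 5 genes it was between -0.29 and 0.15 over all cells. Cells share libraries, runs and depth, so these values are descriptions. The summed glial level ranged from 0 to 4966 CPM in the Mrgprd gate (median 165), 104.3 to 4519 in Mrgpra3 (median 280), 0 to 4579 in Sst/Nppb (median 198), 50.5 to 5022 in Th (median 196) and 0 to 6546 in Calca+Tac1 (median 299). All 8 markers were detected in each gate except Gja1, which was at 0 in Sst/Nppb.

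Among cells under 500 CPM of these markers, mean Vim was 17.1 CPM in 84 Mrgprd cells, 23.9 in 31 Mrgpra3 cells, 3.58 in 39 Sst/Nppb cells, 59.5 in 28 Th cells and 159 in 52 Calca+Tac1 cells. At or over 500 CPM it was 300.3, 247, 260, 259 and 429 CPM in the same order. With the cells at or over 500 CPM left out, an alternative chosen after seeing the data, Vim was still lower in Sst/Nppb than in Calca+Tac1 (-3.72, adjusted p = 0.000443 by limma) and lower in Mrgprd than in Calca+Tac1 (-2.24, adjusted p = 0.00647), while Mrgprd minus Sst/Nppb, at 1.48, had adjusted p = 0.108. Fibroblast markers (Dcn, Lum, Col1a1, Col1a2 and Pdgfra; 4 of 5 detected, Lum at 0) summed to 0 to 253 CPM in the Calca+Tac1 gate and to 0 to 390 CPM in Sst/Nppb (2 of 5 detected; Dcn, Lum and Pdgfra at 0). Endothelial markers were at 0 in both gates, 0 of 4 detected. Mural markers (Rgs5, Acta2, Myh11 and Pdgfrb) summed to 0 to 140 CPM in Calca+Tac1, with 4 of 4 detected, and were at 0 in Sst/Nppb. The part of the fibroblast and mural markers in these differences was not tested.

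**Figure D3:**
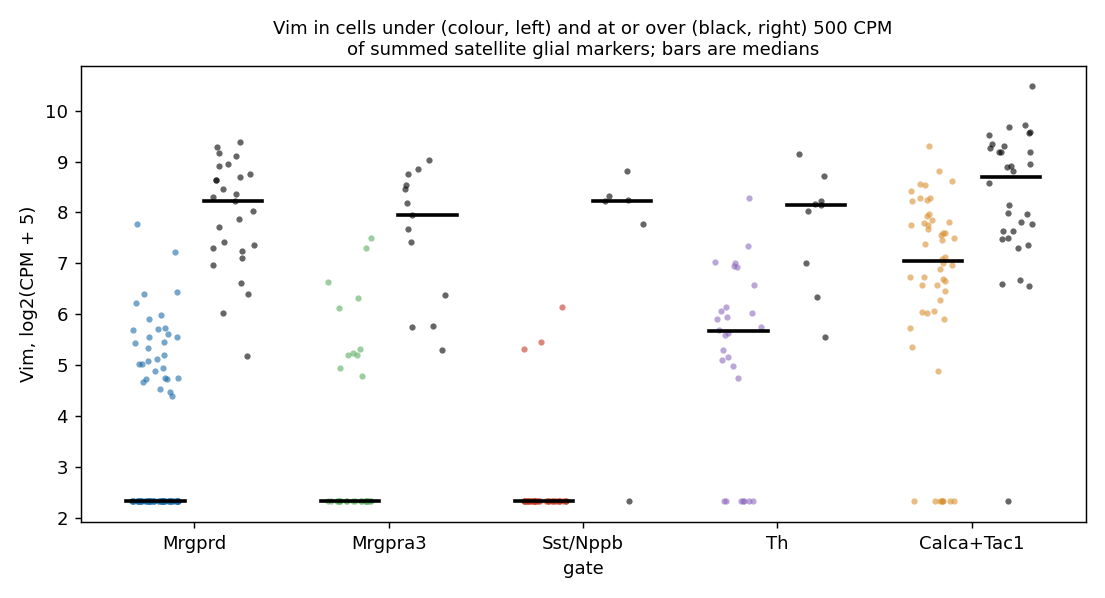
Vim, as log2(CPM + 5), in single cells by gate, split at 500 CPM of summed satellite glial markers (left and coloured, under; right and black, at or over); bars are medians. The left-hand median is at 0 CPM in the Mrgprd, Mrgpra3 and Sst/Nppb gates and at 126.6 CPM in the Calca+Tac1 gate.

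The cells with the most Nefh stood outside the gates. Nefh reached 1000 CPM in 14 of 371 cells, 12 of them in no gate, and 11 came from mouse Control, with 1 each from Blue, Control2 and Control6. This choice used Nefh itself, so what follows is a description. In these 14 cells the median was 1737 CPM for Nefh, 2402 for Nefm and 1833 for Nefl, against 86.1, 466 and 701 CPM in the other kept cells. Median Prph was 1195 CPM against 2202, and Ina had a count in 4 of 14 cells.

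All 15 listed markers of large myelinated neurons are given here. Values beyond the list's 4 highest genes by mean level were added after they were seen. Thy1 (a surface glycoprotein) had a median of 1390 CPM in the 14 cells, S100b (a calcium-binding protein also made by glia) 1582, Kcna1 526 and Kcna2 525 (axonal potassium channels) and Scn8a 341 CPM (the nodal sodium channel). Pvalb, which marks proprioceptors, had a count in 2 of the 14 cells and Spp1 in 4. Necab2 had a count in 5 of them (median 0 CPM) and Cacna1h in 7 (median 7.59 CPM). Medians of the rest were 310 CPM for Ldhb, 161 for Cntnap2, 160 for Scn1a, 131 for Vsnl1, 87.5 for Ntrk2 and 67.5 for Ntrk3. In the other kept cells the median was 106.7 CPM for Kcna2, 56.1 for Cntnap2, 33.5 for Ldhb and 0 for every other listed marker. Scn10a had a count in all 14, with a median of 490 CPM against 667 in the other kept cells. The same cells were deep, with a median of 79734 counts, and held a median of 3354 CPM of the satellite glial markers. The part of either in their levels was not tested.

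Over the 45 cells in no gate, Nefh ran from 0 to 4856 CPM with a median of 209. By mouse the median was 978 CPM in 20 cells of Control, 720 in 4 of Control6 and 138 in 3 of Control2, against 116.7 in 10 cells of Blue and 100.8 in 7 of Red. Median Prph was 1093 CPM in Control, 1111 in Control6 and 968 in Control2, and the single ungated cell of Control1 had 1156 CPM of Prph and 0 of Nefh, against Prph medians of 2235 in Blue and 2611 in Red. So median Prph was lower in all 4 mice of runs 2 to 4 than in run 1, while median Nefh was higher in Control and Control6 and near that of run 1 in Control2, and how the runs and the kinds of cells contribute cannot be told apart. Of the 45 cells, 14 had at least 2000 CPM of Calca but too little Tac1 for the gate; their median was 897 CPM for Nefh (5 of 14 at or over 1000), 1362 for Nefm and 1517 for Nefl, at a median of 55471 counts. The 5 of them from run 1 had a median of 90.3 CPM of Nefh (28.6 to 603) and the 9 from runs 2 to 4 one of 1021 CPM (476 to 2500.2). The 84 cells of the Calca+Tac1 gate had medians of 92.96, 419 and 415 CPM, at a median of 19700 counts, and 0 of 84 reached 1000 CPM of Nefh. In that gate the Nefh median was 77.9 CPM in 69 cells of run 1 and 178 CPM in 15 cells of runs 2 to 4.

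**Figure D4:**
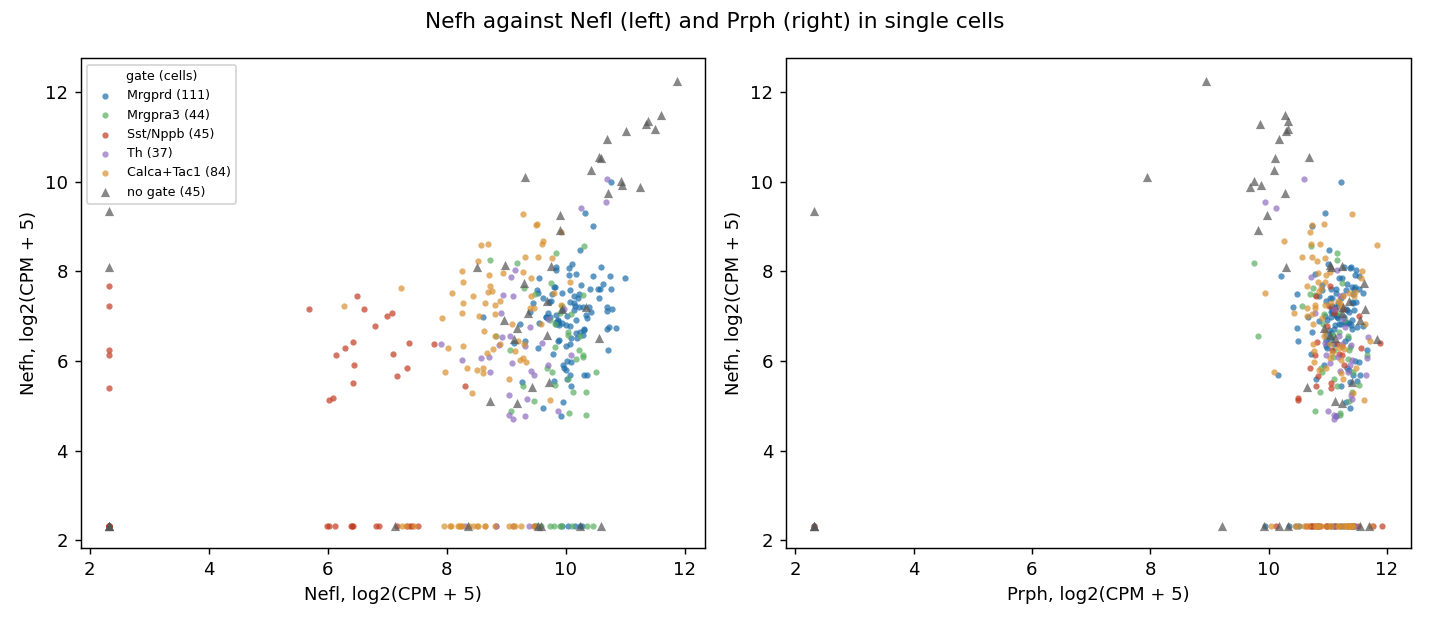
Nefh against Nefl (left) and against Prph (right) in single cells, all as log2(CPM + 5), coloured by gate, with cells in no gate as triangles. Of the 14 cells at or over 1000 CPM of Nefh, 12 are triangles, and they lie mostly at high Nefl and mostly at lower Prph than gated cells.

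Depth moved with the neurofilaments over all cells and mostly less within gates, but in the Th gate not less for Nefl and hardly less for Nefm. The rank correlation of CPM with recovered counts over 371 cells was 0.56 for Nefl, 0.44 for Nefm, 0.39 for Ina and 0.35 for Nefh, and 0.05 for Prph and -0.02 for Vim. With 361 cells thinned to 5000 counts (10 shallower cells left out) the values were 0.47, 0.29, 0.16, 0.23, -0.05 and -0.03. Nefl in the Mrgprd gate had -0.01, with means of 1107, 1070 and 1100.2 CPM in the shallowest, middle and deepest cells when the gate was split into 3 groups of 37. In the Th gate Nefm had 0.43 and Nefl 0.62, and Nefl means rose from 478 through 619 to 884 CPM over 3 depth groups (median counts 18075, 33165 and 45156). The deepest Th group includes the 3 cells of Blue, Red and Control2 with at least 500 CPM of Nefh, at 1649, 1626 and 1222 CPM of Nefl. In the Sst/Nppb gate the Nefl means were 87.4, 96.2 and 105.9 CPM over median counts from 12021 to 28481. In the 45 cells in no gate the values were 0.70 for Nefh, 0.70 for Nefm and 0.58 for Nefl.

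Thinned shares kept the Sst/Nppb gate lowest for each gene but Prph. At 5000 counts Nefl had a count in 99.1% of Mrgprd, 100% of Mrgpra3, 89.2% of Th and 88.1% of Calca+Tac1 cells, and in 31.8% of Sst/Nppb cells (18.6 to 47.6%). Nefm had one in 93.6% of Mrgprd and 52.3% of Sst/Nppb cells (36.7 to 67.5%), and Nefh in 45.9% and 18.2%. Prph had one in 100% of the thinned cells of every gate.

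**Figure D5:**
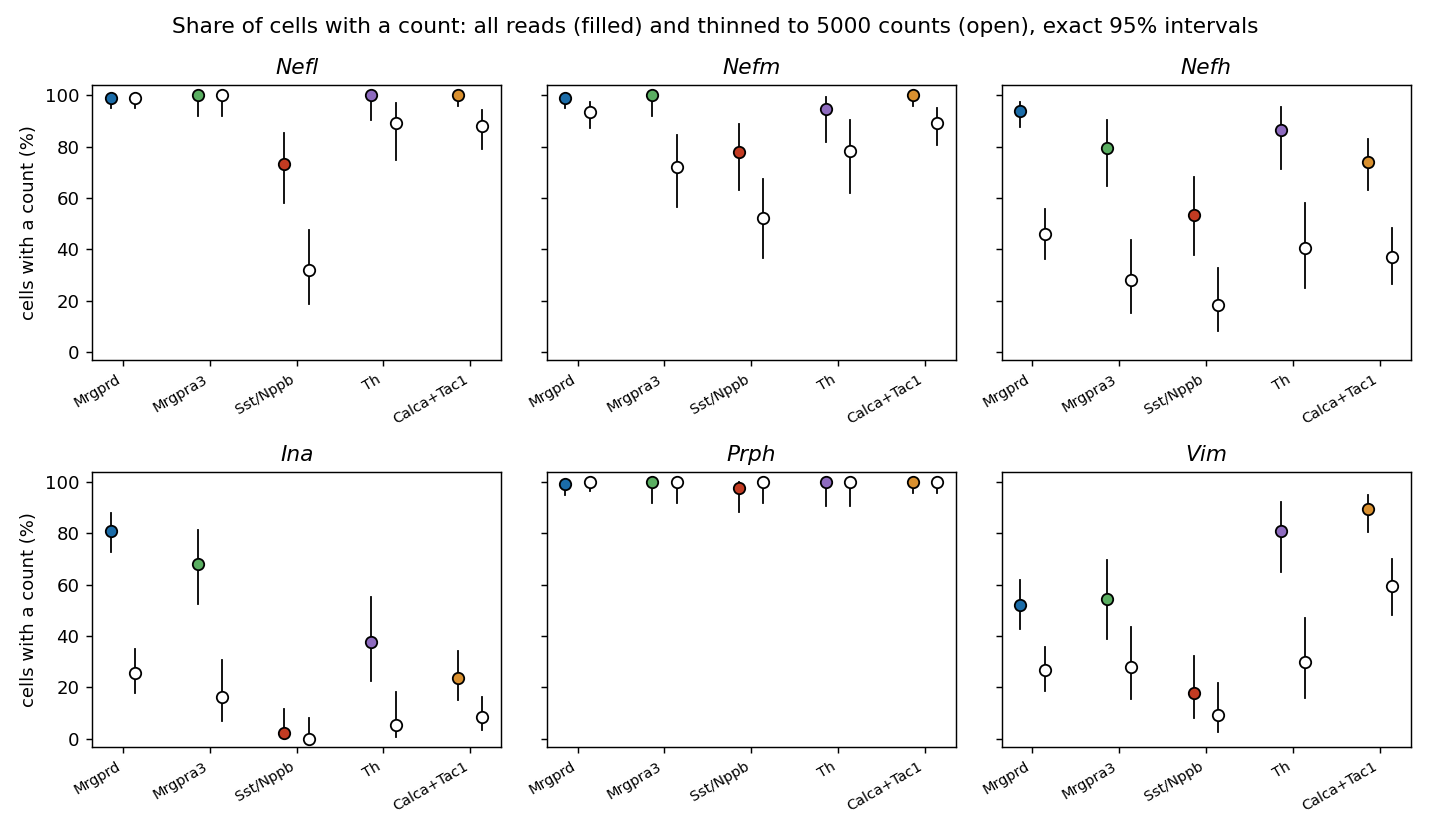
Share of cells with a count of each gene by gate, at full depth (filled) and with every cell thinned to 5000 counts (open), with exact 95% intervals for counting error. For Nefl the thinned share is 31.8% in the Sst/Nppb gate and at least 88.1% in the other gates, and for Prph it is 100% in all.

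Over the 20 mouse-by-gate means, which share mice and gates, Pearson's r of log2(CPM + 5) was 0.90 between Nefm and Nefl, 0.80 between Nefl and Ina, 0.76 between Nefm and Ina and 0.72 between Nefh and Nefm. Prph had r between -0.30 and 0.35 with the other 5. Nefm and Nefl share exonic bases, as given above, so their r is not of wholly separate reads. Of 6831 genes searched, Mfsd6 (r = 0.96), Evi5 (0.96) and Ptprf (0.95) were most like Nefl, and Slc44a1 (0.92), Cd44 (0.92) and Ctsl (0.90) most like Nefm. Ctsz (0.86), Tspan7 (0.85) and Prkar1b (0.84) were most like Nefh, and Wdr35 (0.92), Tspan5 (0.90) and Ctsl (0.88) most like Ina. Psma1 (0.83), Zpr1 (0.82) and Klc1 (0.82) were most like Prph, and Timp3 (0.89), Abca8a (0.85) and Dbi (0.85) most like Vim. Mfsd6, for example, had 276 CPM in Mrgprd and 19.3 CPM in Sst/Nppb.

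Genes that work with these filaments were counted over the same pairs. Of 16 other intermediate filament genes 6 could be tested, and 8 of 60 tests passed (13.3%, against 11% of all tests). Of these 8, 7 were of Synm, a large filament protein that binds vimentin and desmin, and 1 of Sync. Synm was higher in Sst/Nppb, at 854 ± 110 CPM (SD, n = 4), than in Mrgprd, at 674 ± 51.8 (SD, n = 6), so it ran against the neurofilaments there. The nuclear lamin Lmna had means of 117.2 to 149.9 CPM and passed in 0 of 10 pairs, and Iffo1 likewise.

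Among 12 linkers and turnover genes 21 of 120 tests passed (17.5%). The crosslinker Plec was higher in Sst/Nppb (474 ± 42.3 CPM, SD, n = 4) than in Mrgprd (197 ± 27.2, n = 6). Dst, a spectraplakin, averaged 938 to 1193 CPM and passed in 1 pair, and the ubiquitin ligase Trim2 in 0. Hspb1, a small heat shock protein, averaged 677 CPM in Th and 44.6 CPM in Sst/Nppb and passed in 5 pairs. Among 12 kinase and phosphatase genes 12 of 120 passed (10%). The list's share lay near the background. Of the 12 calls, 11 were in pairs with the Sst/Nppb gate, each lower there; of all genes' calls 53.8% were in these pairs, and 66.7% of those were lower in Sst/Nppb. Mapk3 (Erk1) was 960 ± 129 CPM in Mrgprd and 603 ± 158 in Sst/Nppb. Gsk3b, which phosphorylates neurofilament tails, passed in 0 of 10 pairs by limma, and Mapk10 in 1.

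Among 15 neuronal microtubule genes 49 of 150 tests passed (32.7%). Map1b, a microtubule-associated protein of axons, was highest in Sst/Nppb at 5303 ± 440 CPM (SD, n = 4) and lowest in Th at 1996 ± 51.97 (n = 2), and passed in 7 pairs. Tuba1a, an alpha-tubulin, was lowest in Sst/Nppb at 3470 ± 912 CPM. Between Mrgprd and Sst/Nppb 6 of 15 were lower and 2 higher in Sst/Nppb, with a list median of 0.09 against 0.19 for all genes. Tubb4a, a beta-tubulin chosen after its values were seen, had 20.8 ± 8.67 CPM in Sst/Nppb and 251 to 506 CPM in the other gates. Among 9 spectrin and ankyrin genes, the submembrane skeleton, 22 of 90 passed (24.4%): Ank2 was lower in Sst/Nppb (871 CPM) than in Mrgprd (1543 CPM), and Ank3 was lower in Calca+Tac1 (350 CPM) than in Sst/Nppb (1075 CPM).

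Of 15 markers of large myelinated neurons 12 could be tested and 42 of 120 tests passed (35%). Between Sst/Nppb and Th 8 of 12 passed, all higher in Th (14.4% of all genes passed, 8.91% lower in Sst/Nppb), among them Kcna2 (417 CPM in Th, 57.5 CPM in Sst/Nppb) and Thy1 (147 and 1.03 CPM). Cntnap2 and Ldhb passed in 0 pairs. Pvalb and Spp1 had means of 3.69 and 5.67 CPM in the Mrgprd gate and 0 in the others and could not be tested.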

How the data were processed

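The deposited tables give 1 column per cell, and their values are a signal that the authors made from read counts, scaled by a factor per cell (not given in the sources used here). Per the submitters' processing notes, the aligner STAR 2.7.3a and the build mm10 were used. From the steps of low values the counts were recovered (a median of 96.5% of low values were whole within 0.1; whole reads are claimed for 252 columns and not for 142). Each cell was scaled to CPM after leaving out the ribosomal repeat Rn45s (7.11% of signal) and 26 rows whose names had become dates (0.154%). Cells with fewer than 500 genes (23, at most 383 counts) were left out. Of the columns, 0 were identical. No doublet caller was run; the 5 cells in several gates were left out of the comparisons. Mean CPM per mouse and gate was tested with limma 3.58.1 (R 4.3.3) on log2(CPM + 5) for the 9149 genes that averaged 10 CPM or more, with gate and mouse as terms; gates of 1 mouse are paired because their cells come from the same animal. Genes that define the gates were not tested. Alternatives were edgeR 4.0.16 and DESeq2 1.42.0 on recovered counts, other pseudocounts, filters, thresholds, depths, runs and mice. Scripts were tested on simulated data. Named genes were the 6 members, the 3 genes most like each over the means (of at least 20 CPM) and the 4 highest of each list, of which 1 is not reported here. The members and lists were chosen with earlier results of these data known. Intervals for shares and counts cover counting error only.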

Additional observations from a re-analysis of the deposited data

Results flagged for a closer look

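Of 18 sets of mouse means examined, 4 had 1 mouse far from the others relative to their whole range; chance alone marks about 1 set in 20. Nefm in the Mrgprd gate was at 1072 CPM in mouse Control6, above the other 5 mice. Nefl in the Sst/Nppb gate was at 223 CPM and Vim in the same gate at 151 CPM in mouse Control, whose value rests on 4 cells. Ina in the Sst/Nppb gate was at 9.69 CPM in mouse Control1 and at 0 in the other 3 mice, and rests on 1 count in 1 cell.

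Prph moved in opposite directions between the Sst/Nppb and Calca+Tac1 gates in the 2 groups of runs: it was higher in Sst/Nppb in both mice of run 1 and lower in both mice of runs 2 to 4 with the pair, 0.38 apart on the log2 scale. The mean of Control in the Sst/Nppb gate, 1352 CPM, rests on 4 cells. Of these, 1 had no Prph count in a library of 1427 counts. This difference between the runs was not tested. In the 23 libraries left out, Nefh had 4 counts in 1595, found in 2 libraries, with 3 of them in 1 library. Nefm and Vim had 3 counts each in these libraries.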

How the results depend on the processing

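Against 21 of 60 tests called, thinning to 5000 counts gave 11, at least 5 cells per mouse and gate 33, run 1 alone 33, edgeR 37 and runs 2 to 4 alone 8 of the 18 tests they allow (13 in all runs). Leaving out 1 mouse gave 13 to 23. Over all genes, 24.9% of tests were called in run 1 alone and 7.11% in runs 2 to 4 alone, against 11% in all runs. By number, edgeR called 22230 tests, DESeq2 17433, thinning 3206, at least 5 cells 22004, without Blue 3960 and without Red 3827, against 10020. Without the replicate block on mouse 19 of 60 were called. No called difference reversed. Nefl against Sst/Nppb in all 4 pairs, Nefm between Mrgprd and Sst/Nppb, Nefl between Mrgprd and Calca+Tac1, and Nefm and Vim between Sst/Nppb and Calca+Tac1 passed under every alternative that could be fitted; the causes of the changes elsewhere were not tested. The filter on glial and Schwann markers left 1 pair of gates, with 4 of 6 tests called (5 without it).

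Depth limits shares. At 5000 counts the share of cells with a count, in the Mrgprd, Mrgpra3, Sst/Nppb, Th and Calca+Tac1 gates, was 45.9, 27.9, 18.2, 40.5 and 36.9% for Nefh, 93.6, 72.1, 52.3, 78.4 and 89.3% for Nefm, and 25.7, 16.3, 0, 5.41 and 8.33% for Ina. It was 31.8, 89.2 and 88.1% for Nefl in Sst/Nppb, Th and Calca+Tac1, 26.6, 27.9, 29.7 and 59.5% for Vim in Mrgprd, Mrgpra3, Th and Calca+Tac1, and 100% for Prph in Mrgprd and Sst/Nppb. Within gates the rank correlation with depth left its value over all cells by more than the spread over mice for Nefh in Mrgpra3 (0.0408) and Th (-0.0152), for Nefm in Mrgprd (0.11), Mrgpra3 (-0.15), Sst/Nppb (0.0845) and Calca+Tac1 (-0.10), and for Nefl in Mrgprd (-0.0137), Mrgpra3 (0.27), Sst/Nppb (0.25) and Calca+Tac1 (0.0345). The same held for Ina in Mrgprd (0.16), Sst/Nppb (0.15), Th (0.0805) and Calca+Tac1 (0.0411), Prph in Mrgpra3 (-0.21) and Th (-0.32), and Vim in Sst/Nppb (0.27).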
